A study of Saccharomyces cerevisiae with 161 samples.

Results

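Along yeast chromosomes in meiosis, 229 of 1571 Red1 peaks were at least 1.5 times as wide as the Rec8 peak they overlapped, and these wide Red1 peaks are described here. They were chosen by width from the peak lists of wild-type cells. A Red1 peak had to share at least 1 bp with exactly 1 Rec8 peak, and that Rec8 peak had to meet no other Red1 peak. Such pairs numbered 1147, so that the wide Red1 peaks made up 20.0% of them, a share that the choice of 1.5 sets. Another 781 pairs had widths within a factor of 1.5 of each other (balanced pairs), and in 137 pairs (11.9%) the Rec8 peak was at least 1.5 times as wide as the Red1 peak. The remaining Red1 peaks could not be used, because 215 had no Rec8 peak, 119 spanned 2 or more Rec8 peaks and 90 shared their Rec8 peak with a further Red1 peak.

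Meiotic chromosomes fold into loops whose bases are held by a protein axis. In budding yeast the axis is built from cohesin with the meiotic kleisin subunit Rec8, from the filament-forming protein Red1, and from the HORMA domain protein Hop1, which binds Red1. Rec8 also binds Red1 and brings it to cohesin sites, which lie mostly at gene ends, and Red1 and Hop1 together promote the formation and the homolog-directed repair of meiotic double-strand breaks.

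All cells were of the SK1 background, which enters meiosis synchronously, and were fixed 3 h after transfer to sporulation medium. Chromatin immunoprecipitation and sequencing (ChIP-seq) with antibodies against Red1 is labelled with 4 samples, 3 of strain H119 and 1 of strain H6408, which carried the SMC4-PK9 tag. Hop1 has 4 samples (1 of H6408, 2 of H574 and 1 of H119), and Rec8 has 2 samples of H4471, precipitated with anti-HA antibody. The H6408 samples of Red1 and Hop1 shared an input library. The authors combined the replicates before calling peaks, which left 1 list per protein. No value below therefore has a replicate error, no test between samples was possible, and all comparisons are descriptions. Read depth is unknown, and the meiotic state of the cells could not be checked from peak lists.

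The wide Red1 peaks had a median width of 2151 bp (382 to 7670 bp) and their Rec8 partners a median width of 1098 bp (200 to 4944 bp). In balanced pairs the medians were 1903 bp for Red1 and 1855 bp for Rec8. The wide Red1 peaks therefore differed from balanced pairs mainly by a narrow Rec8 peak and less by the width of Red1 itself. Accordingly, they made up 38.3% of the pairs in the lowest quartile of Rec8 width (up to 1008 bp) and 6.29% in the highest (from 2444 bp). Across the quartiles of Red1 width the share went from 18.1% for the narrowest through 14.6% and 17.8% to 29.3% for the widest. These widths chose the peaks and are given without a test.

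**Figure D1:**
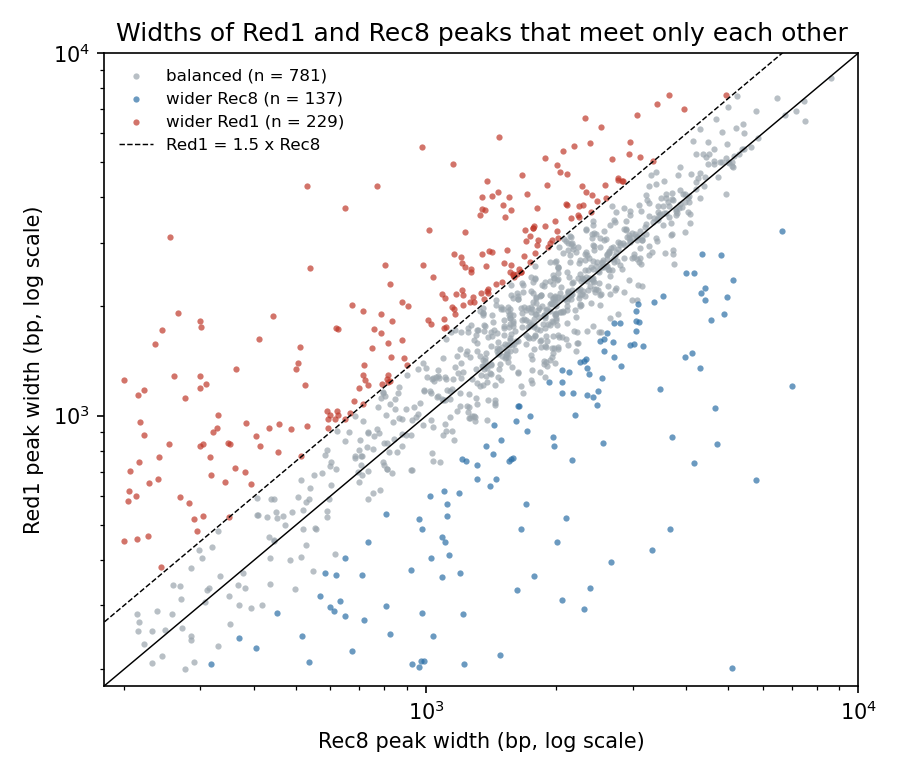
Width of the Red1 peak (vertical, bp, log scale) against that of its Rec8 peak (horizontal, bp, log scale) for 1147 pairs, with equal widths as a solid line and the limit of 1.5 as a dashed line. The 229 wide Red1 peaks (red) form no cloud of their own but continue the spread of the 781 balanced pairs, with the farthest points at narrow Rec8 peaks.

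The width ratio had a median of 1.93, with quartiles of 1.64 and 2.70. The limit of 1.5 cut through a continuous range. Just inside it were 2 peaks of chromosome IV, one from 1137617 to 1138691 with a ratio of 1.5035 and one from 646244 to 648727 with 1.5036. Just outside were peaks on chromosome XIII from 187858 to 189557 (1.494) and on chromosome XVI from 368873 to 370598 (1.483). The highest ratio was 12.2, on chromosome X, where a Red1 peak of 3100 bp from 181181 to 184280 met a Rec8 peak of 255 bp. It was followed by 8.12 on chromosome IV (1125023 to 1129320, Rec8 529 bp) and 7.23 on chromosome XII (244245 to 246166, Rec8 266 bp).

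The Rec8 partners were also called with less significance. Their median −log10 q-value, the peak caller's measure of significance, was 14.7 against 32.5 in balanced pairs, and 22.3% against 5.63% lay under 5. This was not particular to Rec8. The median was 76.9 against 139.7 for the Red1 peaks. In pairs with 1 Hop1 peak it was 62.5 against 116.3 for Hop1. Wide Red1 peaks made up 33.4% of the pairs in the lowest quartile of the Rec8 −log10 q-value (up to 11.6), then 21.6% and 13.6%, and 11.1% in the highest (from 56.5). The Rec8 list rests on 2 samples and the Red1 list on 4, and the part that depth or the calling of weak Rec8 peaks has in the excess width was not tested. The fold enrichment of ChIP over input, averaged over the peak, had a median of 1.57 for the wide Red1 peaks and 1.53 for their Rec8 partners. In balanced pairs it was 1.82 for Red1 and 1.78 for Rec8. Each list is scaled to its own reads, so these values compare peaks within a list and not Red1 with Rec8.

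Red1 sequence outside the Rec8 peak, called the overhang here, had a median length of 1028 bp per peak, with quartiles of 596 and 1635 bp and a maximum of 4533 bp. It added up to 296721 bp, or 52.5% of the sequence in the wide Red1 peaks. In balanced pairs the overhang was 10.9% of the Red1 sequence. Of the wide Red1 peaks, 173 of 229 (75.5%) reached past both edges of their Rec8 peak. Both edges were passed in 48.0% of all 885 pairs in which Red1 reached past Rec8 at all, and in 252 of 623 such balanced pairs (40.4%). The widths that chose the peaks bear on this share. Of the other wide Red1 peaks, 25 extended only to the left and 31 only to the right, in the direction of rising coordinates.

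The overhang was divided unevenly between the sides. The longer side held a median of 90.1% of it, and in 22 peaks less than 60%. It held at least 90% in 115 of 229 wide Red1 peaks (50.2%), compared with 65.4% of all pairs with an overhang and 431 of 623 balanced pairs (69.2%). A Red1 peak no wider than its Rec8 peak can pass only a single edge. All 33 pairs with an overhang and a wider Rec8 peak were of this kind. The widths that chose the peaks therefore bear on this comparison as well. Among the 173 peaks that reached past both edges, the longer side had a median of 872 bp and the shorter of 168 bp. The shorter side was thus below the 200 bp to which the authors extended their reads in the median peak, and the longer side was under 200 bp in 6 wide Red1 peaks. The longer side was on the left in 112 and on the right in 117 peaks. It faced the nearer chromosome end in 125 of 229 peaks (54.6%), and in balanced pairs with a longer side in 317 of 622 (51.0%).

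**Figure D2:**
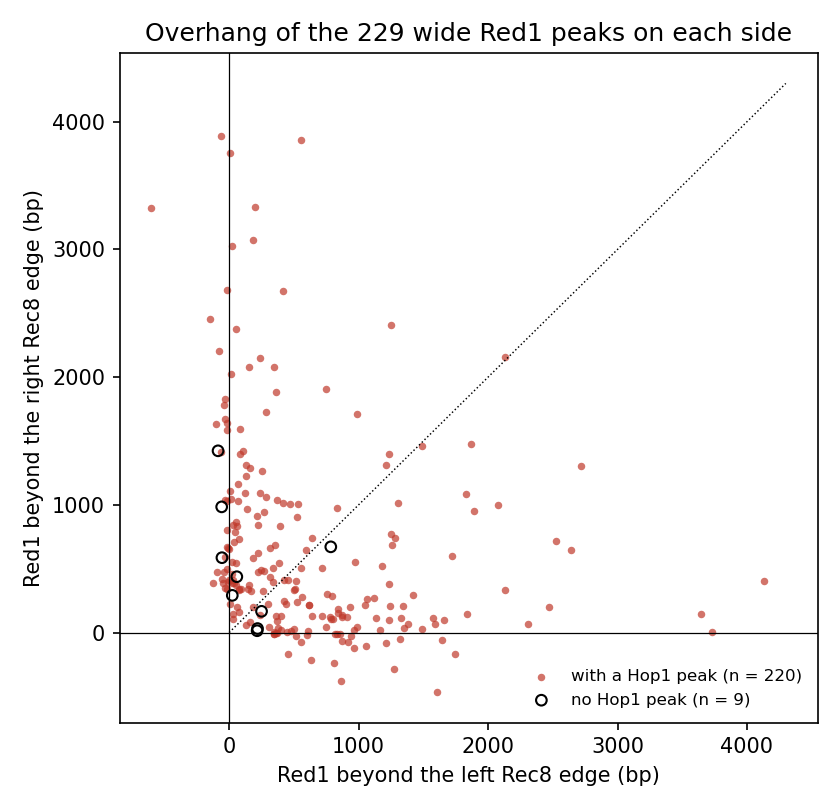
Extent of the 229 wide Red1 peaks beyond the left (horizontal, bp) and the right (vertical, bp) edge of their Rec8 peak, where a negative value means that Rec8 reached farther. Many points lie near one of the axes, away from the dotted line of equal sides, and the 9 peaks with no Hop1 peak (open circles) all have overhangs of at most 1456 bp.

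The 115 peaks with at least 90% of the overhang on one side had a median overhang of 981 bp and a median Rec8 width of 1014 bp, and the other 114 had 1058 bp and 1103 bp. A Red1 summit lay in the overhang in 38 of the former (33.0%) and 35 of the latter (30.7%).

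On the longer side, the Red1 peak ended a median of 3573 bp before the next Rec8 peak, and on the shorter side 5390 bp. In balanced pairs the distance was 5198 bp over both sides. Only 2 wide Red1 peaks came within 500 bp of the next Rec8 peak. These distances are descriptions only. The pairing requires a wide Red1 peak to end before the next Rec8 peak, and the longer side is named from the same Red1 edge from which the distance is counted.

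The longest overhang on a single side was 4129 bp, on the left of a Rec8 peak of 979 bp on chromosome VIII. That Red1 peak, from 184413 to 189924, met 3 Hop1 peaks, which covered 36.6% of its overhang. On chromosome X, a Red1 peak from 172727 to 179967 extended 3892 bp to the right of Rec8 and lay entirely inside Hop1 there. The third, on chromosome IV from 1253489 to 1259372, reached 3860 bp to the right and held 4 summits in its overhang, more than any other wide Red1 peak. A second peak on chromosome IV, from 1125023 to 1129320, reached 3759 bp to the right and only 10 bp to the left. On chromosome VI, a peak from 68201 to 74470 extended 3729 bp to the left and 6 bp to the right. Although Hop1 covered 61.8% of its overhang, no summit lay there.

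Hop1, whose coordinates played no part in the choice, was present at wide Red1 peaks about as often as at the other pairs. At least 1 Hop1 peak was met by 220 of 229 (96.1%), compared with 96.3% of all 1147 pairs and 762 of 781 balanced pairs (97.6%). Exactly 1 was met by 205 (89.5%, against 94.1% of all pairs), 2 by 13, 3 by 2 and none by 9. The 205 Hop1 peaks had a median width of 1954 bp, close to that of the Red1 peaks. The Hop1 peak was at least 1.5 times as wide as the Rec8 peak in 142 of these 205 (69.3%), compared with 21.3% of all 1079 pairs with 1 Hop1 peak and 85 of 751 balanced pairs (11.3%). The ratio of Hop1 to Rec8 width had a median of 1.80, against 1.04 in balanced pairs and 0.556 where Rec8 was the wider peak. The ratio of Hop1 to Red1 width had medians of 0.984, 1.01 and 1.11 in the same order. The Rec8 width enters the choice as well as the first ratio, so the share of 69.3% is not independent of the choice.

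Hop1 peaks covered 68.4% of the overhang sequence and 96.3% of the sequence shared by Red1 and Rec8. At least 50% of the overhang was inside Hop1 peaks in 151 of 229 wide Red1 peaks (65.9%), close to the 63.8% of all 885 pairs with an overhang. The overhang was entirely inside Hop1 in 56 wide Red1 peaks (24.5%), against 31.5% of all pairs with an overhang and 34.5% of balanced pairs with one. Hop1 was missing from it in 19 (8.30%), against 16.4% and 17.7%. The median overhang was 1028 bp in wide Red1 peaks and 121 bp over all 781 balanced pairs, of which 158 had no overhang. A short overhang lies more easily entirely inside or entirely outside a Hop1 peak, and the part of length in these shares was not tested. The choice by width makes overhangs of the wide peaks longer than those of balanced pairs. Hop1 covered a similar share of the overhang sequence in both, 68.4% and 67.7%. In wide Red1 peaks that share was lowest for short overhangs. It was 50.7% of the sequence in the 47 overhangs under 500 bp and 65.9% from 500 bp. From 1000 bp it was 66.8%, and in the 42 overhangs of at least 2000 bp 73.4%. The median share per peak was 56.0%, 92.3%, 87.3% and 83.2% in the same order, and so did not rise from 500 bp on. Median Red1 fold enrichment also differed between these groups (1.37, 1.51, 1.72 and 1.77), and its part was not tested.

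Along the longer side, Hop1 coverage declined from the Rec8 edge outward and dropped at the Red1 edge. With the longer side divided into 10 equal steps, it was 83.5% in the step next to Rec8, 64.5% in the fifth, 51.5% in the last step before the Red1 edge and 27.7% in the next step outside. Sequence of equal length just outside the Red1 peak had 22.7% in Hop1 peaks, compared with 66.1% on the longer side itself and 29.1% over all chromosomes. In balanced pairs the sequence just outside had 14.3% and the longer side 67.4%. The stretch counted outside is as long as the overhang and so reaches farther at wide Red1 peaks, which makes the values outside unlike. From the last step before the Red1 edge to the next step outside, balanced pairs went from 46.7% to 28.8%. In wide Red1 peaks with 1 Hop1 peak and at least 200 bp on the longer side, the Hop1 edge was nearer to the Red1 edge than to the Rec8 edge in 137 (68.8%). Its median distance was 283 bp from the Red1 edge and 629 bp from the Rec8 edge, and it lay beyond the Red1 edge in 76 and inside the Rec8 peak in 16. In 267 balanced pairs the corresponding share was 69.3%.

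**Figure D3:**
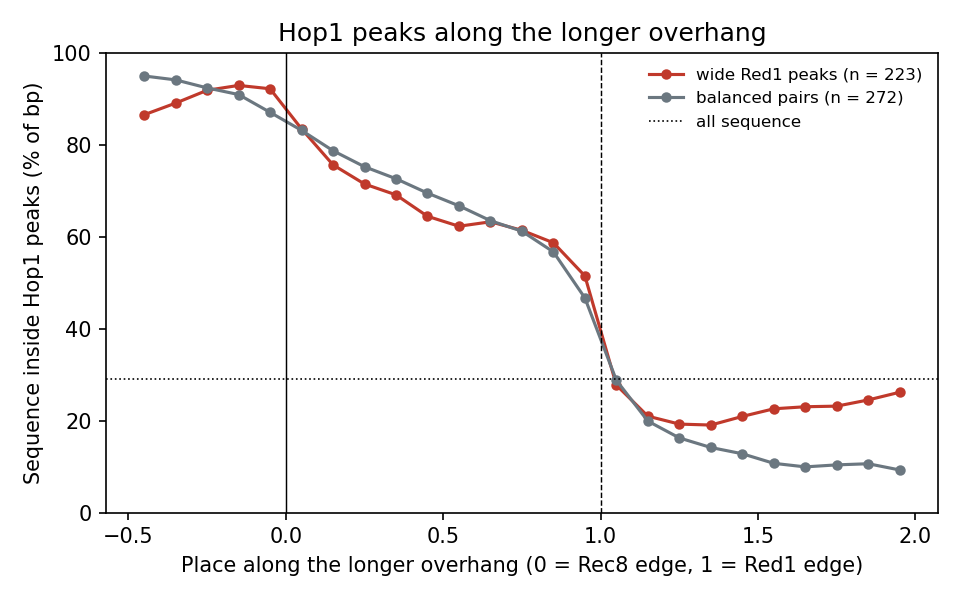
Percentage of sequence inside Hop1 peaks (vertical) along the longer overhang scaled to its length, from the Rec8 edge (0) to the Red1 edge (1), for 223 wide Red1 peaks (red) and 272 balanced pairs (grey) with at least 200 bp on that side. Both lines fall from 83.5% and 83.2% in the first step to 51.5% and 46.7% in the last, and below the 29.1% of all sequence (dotted) beyond the Red1 edge.

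The 9 wide Red1 peaks without Hop1 were narrow, with a median width of 702 bp and overhangs from 230 to 1456 bp. The most significant of them lay on chromosome II from 151492 to 151941, where a Red1 peak of 450 bp had a fold enrichment of 1.42 and a −log10 q-value of 33.5. It was followed by peaks on chromosome XI from 380408 to 382164 (1.29-fold, −log10 q-value 25.3) and on chromosome XIV from 375114 to 375633 (1.34-fold, −log10 q-value 23.9). Of the 9, 3 held no Red1 summit and 1 held a summit in the overhang.

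Red1 summits, the local maxima of Red1 signal, come from the same Red1 libraries as the widths and from a separate peak call. Their list is labelled as over 20, and its lowest score was 20.0. Sequence without a summit may therefore hold a weaker maximum that is not listed. The 229 wide Red1 peaks held 358 of them. In 137 peaks there was 1 summit, in 49 there were 2, in 27 there were 3, in 9 there were 4 or more, and 7 had none. A single summit was thus found in 59.8% and 2 or more in 37.1%, near the 58.2% and 37.7% of all 1147 pairs. Of the 358 summits, 261 were inside the Rec8 peak and 97 (27.1%) in the overhang. Per kb, this amounted to 0.973 summits in the sequence shared with Rec8 and 0.327 in the overhang, and balanced pairs had 0.789 and 0.187.

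A summit in the overhang occurred in 73 wide Red1 peaks (31.9%), compared with 12.0% of all 885 pairs with an overhang and 33 of 623 balanced pairs with one (5.30%). The share differed with the length of the overhang, on which the widths that chose the peaks bear. It was 6.38% for overhangs under 500 bp, 15.6% from 500 bp, 39.5% from 1000 bp and 71.4% from 2000 bp, while the number per kb went from 0.169 through 0.201 and 0.341 to 0.388. Among the longest overhangs, 30 of 42 held a listed summit. Most summits in the overhang lay at least 200 bp from the Rec8 edge. Their median distance from it was 935 bp (quartiles 390 and 1506 bp, highest 3626 bp). Of the 97, 10 were within 200 bp, and 59 were closer to the Red1 edge than to the Rec8 edge. The share of overhang sequence in these zones was not computed, so these counts have no baseline.

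Summits in the overhang scored low. Their median score was 47.2 (20.0 to 269), against 271 for the 261 summits inside Rec8 (20.6 to 2847) and 169 for all 2385 summits of the list. Of the 62 wide Red1 peaks with summits of both kinds, the highest in the overhang was lower than the highest inside Rec8 in 59, with a median ratio of 0.126 and a ratio below 0.25 in 45. Only 2 wide Red1 peaks (0.873%) had an overhang summit that reached the median score of the list. Of the 97 summits in the overhang, 87 (89.7%) were inside a Hop1 peak. Hop1 covered 68.4% of all overhang sequence and 73.4% in overhangs of at least 2000 bp, which most often held a summit. The part of overhang length in this difference was not tested.

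**Figure D4:**
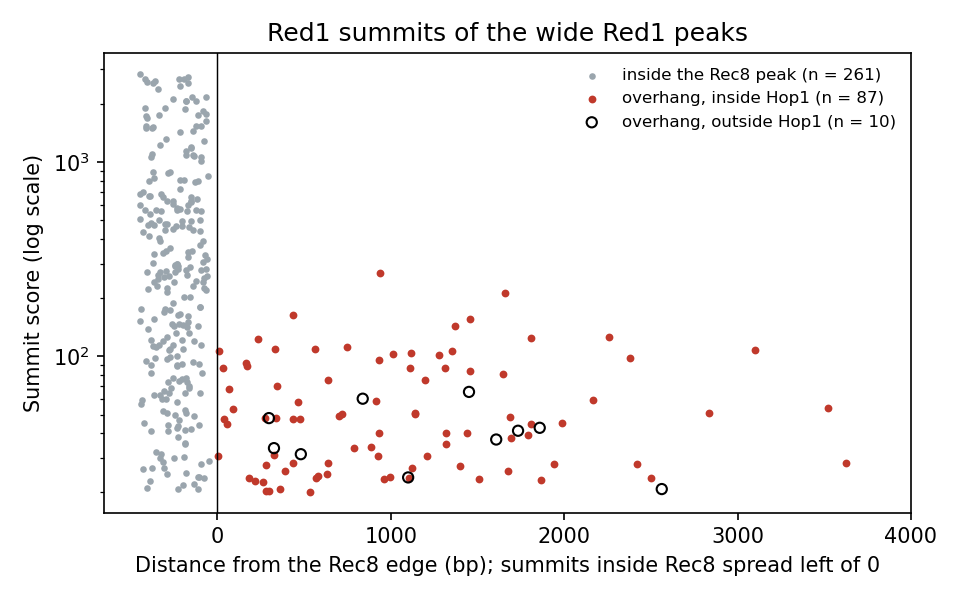
Score of Red1 summits (vertical, log scale) in the 229 wide Red1 peaks against distance from the Rec8 edge (horizontal, bp), with the 261 summits inside Rec8 spread at random left of 0. The 97 summits in the overhang stay at or below 269 at all distances, whereas those inside Rec8 reach 2847, and 10 overhang summits (open circles) lie outside Hop1.

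The highest-scoring summit in an overhang had a score of 269, on chromosome IX in a Red1 peak from 257136 to 260945, 935 bp from Rec8, where the highest summit inside Rec8 had 451. The second, with 212, was on chromosome I in a peak from 54086 to 58421, 1656 bp from Rec8, and the summit inside Rec8 had 1899. Hop1 covered that overhang entirely, as part of a Hop1 peak of 6984 bp. The third, with 163, was again on chromosome IX, in a peak from 319908 to 324543 with 5 summits.

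The highest summit of a wide Red1 peak was inside the Rec8 peak in 208 of the 222 with a summit. In 14 (6.31%) it was in the overhang, compared with 1.36% of the 1099 pairs with a summit and 1 of 753 balanced pairs. The 1.36% includes these 14 peaks. The overhang was 52.5% of the Red1 sequence in wide Red1 peaks and 10.9% in balanced pairs. The widths that chose the peaks therefore bear on this share. These 14 Red1 peaks were all called with a Rec8 −log10 q-value of at most 6.87. Chosen after its values were seen, a peak on chromosome XIV from 740028 to 744329 may serve as an example. Its Rec8 peak of 770 bp contained no summit, and both of its Red1 summits lay on the 3336 bp to the right, the higher with a score of 95.5 and 934 bp from Rec8. A single Hop1 peak of 5492 bp covered 99.7% of its overhang.

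Wide Red1 peaks occurred on all 16 chromosomes. On the 3 shortest, I, III and VI, they made up 4 of 10, 6 of 17 and 7 of 15 pairs, or 17 of 42 together (40.5%). On the other 13 chromosomes they made up 212 of 1105 (19.2%), from 13.7% on chromosome II to 33.3% on chromosome IX, the next shortest. Their median overhang was 1609 bp on the 3 shortest chromosomes and 995.5 bp on the others, and Hop1 covered 85.7% and 66.5% of it. A summit in the overhang was found in 5 of 17 (29.4%) and in 68 of 212 (32.1%). On the 3 shortest chromosomes only 42 of 92 Red1 peaks entered the pairs, and 28 spanned 2 or more Rec8 peaks, so that the pairs leave out most of their Red1 peaks. The share of pairs with a wider Rec8 peak was 11.9% in both groups of chromosomes.

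**Figure D5:**
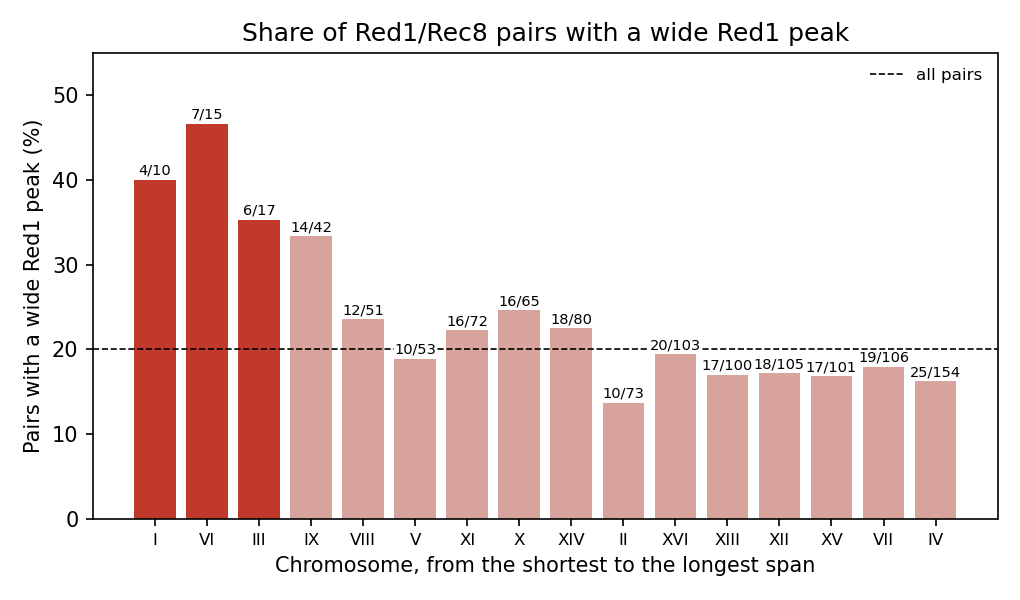
Share of pairs with a wide Red1 peak (vertical, %) on each chromosome in order of span, with the number of wide Red1 peaks and of pairs above each bar and the 20.0% of all pairs as a dashed line. Chromosomes I, III and VI (dark) and IX stand at 33.3% or more, and the other 12 between 13.7% and 24.6%.

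Near chromosome ends, wide Red1 peaks made up 8 of 61 pairs within 20 kb of the end of the coordinates (13.1%), and pairs with a wider Rec8 peak made up 15 (24.6%). Farther in, the share of wide Red1 peaks was 24.2% from 20 kb, 22.1% from 50 kb, 23.1% from 100 kb and 18.0% from 200 kb. Without chromosomes I, III and VI, these 5 shares were 13.7%, 22.6%, 16.9%, 22.6% and 18.0%.

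In the order of pairs along a chromosome, 63 of 228 wide Red1 peaks (27.6%) were followed by another, and so were 165 of 903 other pairs (18.3%). Without the 3 shortest chromosomes the shares were 25.6% and 17.8%. Most stood alone, with 119 single wide Red1 peaks, 36 runs of 2 and 11 runs of 3 or more. Red1 peaks outside the pairs are skipped in this order and may lie between the members of a run. The longest run, of 6, spanned 72.1 kb on chromosome VI from 68201 to 140266, with overhangs from 343 to 3735 bp. There were 2 runs of 4, and all 3 of these long runs were picked after their values were seen. One was on chromosome III from 235078 to 297731, where Hop1 covered 98.4% of the overhang. The other was on chromosome X from 485690 to 513781, where the overhangs added up to 7438 bp and all lay inside Hop1 peaks.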

How the data were processed

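Peak lists for Red1, Hop1 and Rec8 and a list of Red1 summits were used. The authors mapped reads to the SK1 genome with Bowtie, lengthened each to 200 bp and, without PCR duplicates, called broad peaks on combined replicates against input with MACS2 2.1.1. The deposited fold enrichment is the authors' ratio of ChIP over input, averaged over a peak, and each peak also has a deposited −log10 q-value. The authors' summit score is deposited without the name of the measure. The list is labelled as over 20, and the lowest score was 20.0, so weaker summits are not in it. Neighbouring peaks of a list were at least 801 bp apart, so signal with shorter gaps appears as 1 peak. Coordinates are SK1 and 1-based. They reach past the end of 5 chromosomes of the S288C reference, which was not used further, and no sequence is printed. Transcript levels were not used, as their identifiers carry no positions.

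Of 161 samples, 3 have contradictory labels and were left unassigned. The span of a chromosome ran from its first to its last interval. Pairing, overhangs and coverage were computed with Python 3.11.15 and pandas 2.3.3 and tested on simulated lists. The wide Red1 peaks, lists and comparisons were chosen with earlier results of these data known. Named regions followed a rule. It took the 5 longest overhangs on a single side, the 3 highest ratios and the 3 highest overhang summits. It also took the 3 most significant peaks without Hop1, and 2 on each side of the limit. The 11 alternatives concerned the limit, q-value, overlap, joining of peaks, chromosomes, ends and summits.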

Additional observations from a re-analysis of the deposited data

How the results depend on the processing

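Of 65 values under 11 alternatives, 50 stayed within the exact 95% binomial interval of the value given in the report or, for the number of peaks, within 1.5 times of it. The intervals count the peaks of a combined list as if independent and hold no replicate error. They serve only as a yardstick, and the alternatives reuse many of the same peaks. Requiring Red1 to be only 25% wider than Rec8 gave 362 wide Red1 peaks in place of 229, with a median overhang of 806 bp and an overhang summit in 25.1%. A width ratio of at least 2 gave 107 peaks, 1350 bp and 44.9%, and lowered the share of pairs on chromosomes I, III and VI from 40.5% to 19.0%, against 8.96% on the others. With peaks of −log10 q-value 5 or more the median overhang was 1328 bp and a summit lay in 40.7%. Requiring 1000 bp of excess width gave 131 peaks. With summits of at least the median score, 0.873% had one in the overhang in place of 31.9%. The share of overhangs at least 50% inside Hop1 peaks ranged from 64.2% to 70.1% over 8 alternatives. Joining peaks closer than 500 bp changed nothing, since no gap is that short. Its values could not move, although they are counted among the 50. Joining peaks closer than 1000 bp, added after seeing the data, gave 208 peaks. No paired analysis was possible because each list combines its replicates, and leaving out a replicate was not possible for the same reason. Depth is unknown.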
